A study of Mus musculus with 6 samples.

Results

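The genes described here encode the machinery of DNA replication and of mitosis. They were a fixed list of 45 mouse genes, matched by symbol to the array. A value was found for 43 of them among the 20239 named genes, and Pcna and Ccnb1 were not analysed here. The list was divided by role into 22 genes that act at the G1/S transition and in DNA synthesis (21 with a value) and 23 genes that act in G2 and mitosis (22 with a value). The samples were sciatic nerves from mice aged 25 days, each hybridised to 1 Affymetrix whole-transcript array. The 3 mutants had the genotype DhhCre::Sip1 flox/flox. Sip1 is the older name of Zeb2, a zinc finger repressor, and the Dhh-driven Cre deletes it in the Schwann cell lineage. The 3 controls were Sip1 flox/flox without the Cre, so both groups carried the floxed alleles and the effect of the Cre by itself was not measured. The labels give neither sex nor pooling of nerves.

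A cell that commits to division first licenses its replication origins by loading the Mcm helicase with the help of Cdc6 and Cdt1. Cyclin E and the E2F factors then switch on the genes of DNA synthesis. Mitotic genes follow later in the cycle, when the MuvB complex with B-Myb and FoxM1 activates cyclins, mitotic kinases, motors and checkpoint proteins. The transcripts of both waves are rare in resting tissue and mark cells that are cycling. Schwann cells divide while nerves form and normally leave the cycle as they myelinate. In a whole nerve, a larger number of cycling cells and more RNA per cycling cell cannot be told apart.

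The promoters are shown because the 2 classes are known for different control elements. RefSeq promoter windows on GRCm38.p6, from 250 bases before to 50 bases after the start, were found for 36 of the 45 genes. They were searched on both strands for the E2F letters TTTCCCGC and TTTGGCGC, for the cell cycle homology region (CHR) letters TTTGAA and TTTAAA, for CCAAT and for the E-box CACCTG, which ZEB factors bind. A gene was counted once, however many windows or matches it had. The windows below come from Mcm6 (chr1:128359656-128359955, minus strand), Cdc6 (chr11:98907901-98908200, plus strand), Cdk1 (chr10:69352863-69353162, minus strand), Kif23 (chr9:61946750-61947049, minus strand), Top2a (chr11:99024140-99024439, minus strand) and Ttk (chr9:83834439-83834738, plus strand). Each reads 5′ to 3′, and capitals mark E2F letters in the windows of Mcm6 and Cdc6 and CHR letters in the others.
Mcm6: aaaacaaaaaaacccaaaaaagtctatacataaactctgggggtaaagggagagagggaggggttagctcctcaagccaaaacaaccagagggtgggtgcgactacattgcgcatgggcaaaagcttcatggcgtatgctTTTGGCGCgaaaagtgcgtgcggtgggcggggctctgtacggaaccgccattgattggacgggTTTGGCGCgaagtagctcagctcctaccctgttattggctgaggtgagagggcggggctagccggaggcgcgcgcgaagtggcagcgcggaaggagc
Cdc6: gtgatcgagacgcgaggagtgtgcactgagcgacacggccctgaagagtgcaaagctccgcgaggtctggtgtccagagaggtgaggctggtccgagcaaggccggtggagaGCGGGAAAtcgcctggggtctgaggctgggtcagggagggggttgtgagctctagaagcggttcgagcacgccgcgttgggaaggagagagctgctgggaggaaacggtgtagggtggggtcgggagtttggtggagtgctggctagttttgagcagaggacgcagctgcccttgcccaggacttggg
Cdk1: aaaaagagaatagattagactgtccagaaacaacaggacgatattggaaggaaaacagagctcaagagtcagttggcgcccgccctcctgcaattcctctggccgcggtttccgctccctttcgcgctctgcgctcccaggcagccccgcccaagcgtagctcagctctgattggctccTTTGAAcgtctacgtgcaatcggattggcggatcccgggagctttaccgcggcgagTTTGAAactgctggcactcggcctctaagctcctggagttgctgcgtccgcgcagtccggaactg
Kif23: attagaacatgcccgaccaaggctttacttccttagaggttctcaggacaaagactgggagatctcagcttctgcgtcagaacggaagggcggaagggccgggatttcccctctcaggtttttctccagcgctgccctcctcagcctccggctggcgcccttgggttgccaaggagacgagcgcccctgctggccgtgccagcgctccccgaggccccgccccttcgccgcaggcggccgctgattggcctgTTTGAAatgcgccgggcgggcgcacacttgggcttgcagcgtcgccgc
Top2a: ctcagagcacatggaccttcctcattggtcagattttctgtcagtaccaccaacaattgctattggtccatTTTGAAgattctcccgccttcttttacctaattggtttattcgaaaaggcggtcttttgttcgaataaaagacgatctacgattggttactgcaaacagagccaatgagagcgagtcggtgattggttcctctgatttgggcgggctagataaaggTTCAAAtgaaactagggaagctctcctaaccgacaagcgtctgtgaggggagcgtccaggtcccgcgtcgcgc
Ttk: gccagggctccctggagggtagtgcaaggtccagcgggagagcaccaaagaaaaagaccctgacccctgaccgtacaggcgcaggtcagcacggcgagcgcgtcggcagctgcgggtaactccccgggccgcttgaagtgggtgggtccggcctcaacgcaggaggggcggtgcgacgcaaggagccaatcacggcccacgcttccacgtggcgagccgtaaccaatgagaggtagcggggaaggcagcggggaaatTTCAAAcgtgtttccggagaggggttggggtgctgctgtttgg

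The E2F letters were present in 7 of 16 G1/S promoters (43.8%) and in 0 of 18 G2/M promoters, against 2.52% of the 15651 named array genes with a window. The CHR letters were present in 16 of 18 G2/M promoters (88.9%), in 4 of 16 G1/S promoters (25.0%) and in 27.2% of all genes. The CCAAT letters stood in 15 of 18 G2/M promoters (83.3%) and 9 of 16 G1/S promoters (56.2%), against 41.9%. The E-box was found in 1 G2/M promoter (5.56%) and 2 G1/S promoters (12.5%), against 22.2% of all genes. In Mcm6 the E2F letters lay at −110 to −103 and at −47 to −40 from the start, and in Cdc6 once, at −138 to −131. In Cdk1 the CHR letters lay at −71 to −66 and at −15 to −10, and in Kif23 at 3 to 8. Other forms of the E2F letters were not searched, such as TTTCGCGC, which the Cdk1 window holds. The 0 of 18 therefore does not mean that G2/M promoters lack E2F sites. A match of letters is a description of the window and not a measured binding site.

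**Figure D1:**
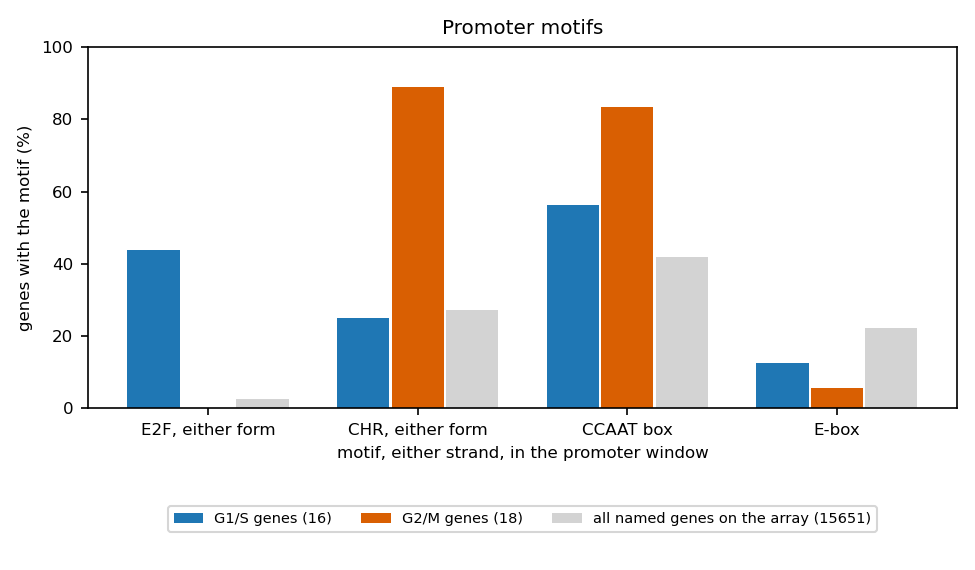
Percent of genes with a motif in the promoter window, for 16 G1/S genes, 18 G2/M genes and 15651 named genes of the array. The E2F bar, for the letters TTTCCCGC and TTTGGCGC only, is tallest for the G1/S genes (43.8%) and the CHR bar for the G2/M genes (88.9%).

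The tissue and the deletion were checked first. In this and the following paragraphs, log2 values are given for mutants 1, 2 and 3 and, after the word against, for controls 1, 2 and 3. Zeb2 had values of 10.96, 10.66 and 11.01 against 11.67, 11.57 and 12.02, a difference of −0.88 (SE 0.15, limma adjusted p = 0.0137, and 0.0522 without mutant 1). Of the Schwann cell markers used here, S100b and Mbp stood above the array medians of 8.02 to 8.11 on every array. Skeletal muscle transcripts differed widely within both groups, and the nerve numbered 2 was the most muscle-rich of each. Xist and Eif2s3y marked mutants 1 and 2 and control 3 as male and the other 3 samples as female. Where nothing else is said, SE is limma's moderated standard error and an adjusted p is from limma with Benjamini-Hochberg adjustment over all named genes.

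Transcripts of both classes had higher means in mutant nerves, but none passed the test. The mean was higher in the mutants for 42 of 43 genes, against 45.9% of all named genes, and Gins1 was the exception. No gene passed in either direction at a limma adjusted p under 0.05, against 9.62% of all named genes, 5.74% as higher and 3.89% as lower. Of the 43 genes, 27 had an unadjusted p under 0.05, all higher in the mutants (62.8%), where 13.7% of all genes were higher at that level and 8.67% lower. The median log2 difference was 0.43, a fold of 1.35, and the median over all genes was −0.02. In a fit that blocked on replicate number, Rrm2 (adjusted p = 0.0465), Kif20a (0.028) and Kif23 (0.049) passed as higher (limma), 3 of 43 genes where 5.95% of all named genes did. The genes were chosen with earlier results of these data known, so these counts describe the list and do not test it.

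**Figure D2:**
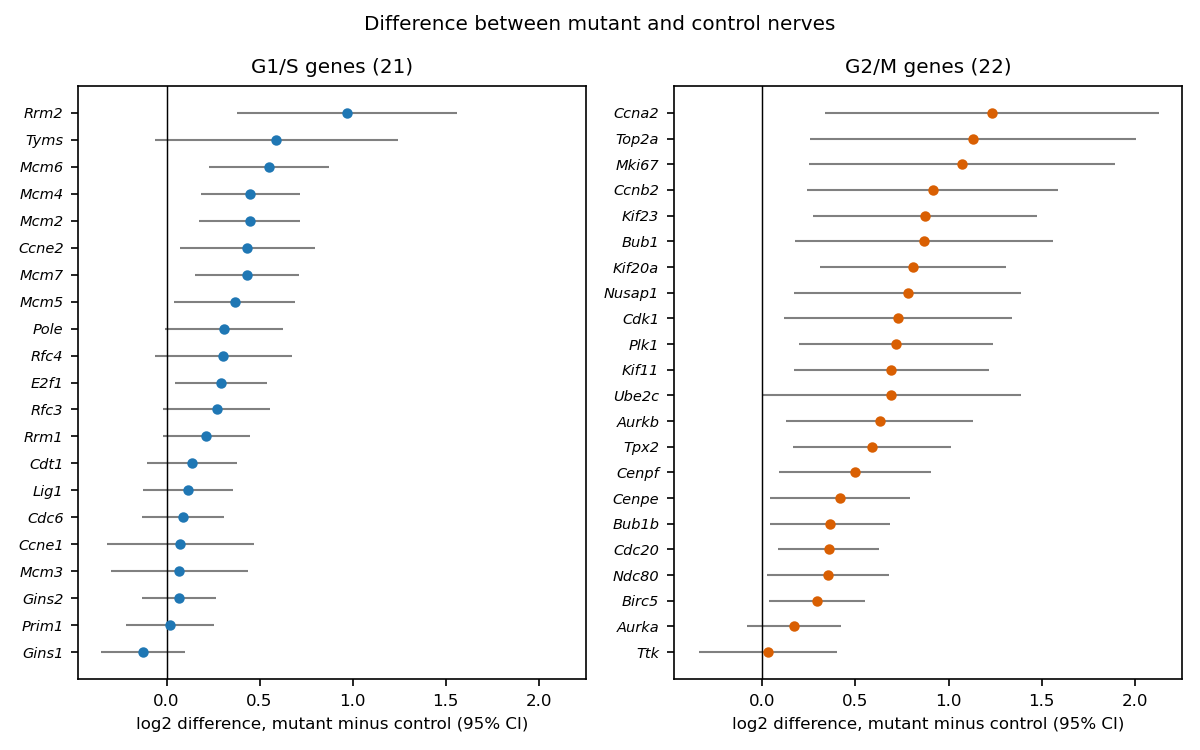
Log2 difference between the 3 mutant and the 3 control nerves for each gene, with the 95% confidence interval from limma, in both classes. Only Gins1 has a mean below 0, and the G2/M genes reach farther to the right than the G1/S genes, with wider intervals.

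Among the G1/S genes, 2 subunits of the Mcm helicase, Mcm4 and Mcm6, had the smallest p-values. Mcm4 had values of 8.55, 8.33 and 8.69 against 8.15, 8.02 and 8.04. Every mutant lay above every control, and the difference was 0.45 (SE 0.11, 1.37-fold, limma adjusted p = 0.0515). Mcm6 gave 8.36, 8.20 and 8.45 against 8.04, 7.73 and 7.58. Again no mutant overlapped a control, and the difference was 0.55 (SE 0.14, 1.47-fold, limma adjusted p = 0.0515). Mcm2 gave 8.78, 8.73 and 8.91 against 8.44, 8.48 and 8.15, a difference of 0.45 (SE 0.11, adjusted p = 0.0582). Its mutant arrays lay close together, and control 3 was the low array. Mcm7 gave 8.77, 8.49 and 8.84 against 8.26, 8.38 and 8.17, a difference of 0.43 (SE 0.12, adjusted p = 0.072). Mcm5 gave 8.63, 8.55 and 8.73 against 8.53, 8.24 and 8.03, with mutant 2 only 0.02 above control 1 and a difference of 0.37 (SE 0.14, adjusted p = 0.17). These 3 genes did not overlap between the groups either.

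Mcm3, another helicase subunit, had values of 7.52, 7.35 and 7.70 against 7.72, 7.44 and 7.21, with control 1 the highest of all 6 arrays. The groups overlapped and the difference was 0.07 (95% confidence interval −0.30 to 0.44, adjusted p = 0.842). The difference between Mcm3 and the other subunits was not tested. The loading factors Cdc6 (0.09, SE 0.09) and Cdt1 (0.14, SE 0.10) overlapped between the groups as well. So did the GINS subunits, which join the helicase when it starts to unwind DNA, with Gins2 at 0.07 and Gins1 at −0.13 (95% confidence interval −0.35 to 0.10).

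The largest difference in this class belonged to nucleotide supply. Rrm2, the cycle-regulated subunit of ribonucleotide reductase, had values of 8.89, 8.19 and 8.92 against 7.98, 7.80 and 7.31. Every mutant exceeded every control, and mutant 2 came within 0.21 of control 1. The difference was 0.97 (SE 0.25, 1.96-fold with a 95% confidence interval of 1.30 to 2.94, limma adjusted p = 0.0575). Rrm1, the partner subunit, differed by 0.21 (SE 0.10) and did not overlap either. Tyms, the thymidylate synthase, had a mean difference of 0.59 (SE 0.28), but control 1 at 7.74 lay within the mutant range of 7.45 to 7.90. The polymerase epsilon subunit Pole (0.31) separated the groups. The clamp loader subunits Rfc3 (0.27) and Rfc4 (0.30), the ligase Lig1 (0.11) and the primase Prim1 (0.02) overlapped.

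The regulators of S phase entry followed. E2f1, an activator of the G1/S genes, had values of 8.38, 8.12 and 8.28 against 8.04, 8.04 and 7.84. The groups did not overlap, and the difference was 0.29 (SE 0.11, adjusted p = 0.154). Ccne2, which encodes cyclin E2, gave 7.11, 6.85 and 7.33 against 6.77, 6.77 and 6.44, without overlap and with a difference of 0.43 (SE 0.15, adjusted p = 0.145). Ccne1, which encodes cyclin E1, gave 8.44, 8.13 and 8.20 against 8.52, 8.08 and 7.94. Control 1 was its highest array, and the difference was 0.07 (95% confidence interval −0.32 to 0.47, adjusted p = 0.844). The difference between the 2 cyclins was not tested.

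Mitotic genes had larger differences and a wider spread. Ccna2, the cyclin of S phase and G2, had values of 8.99, 8.30 and 9.36 against 8.35, 7.54 and 7.07. Mutants 1 and 3 lay above every control, while mutant 2 was just under control 1. The difference was 1.23 (SE 0.38, 2.35-fold, limma adjusted p = 0.101), and the SDs were 0.54 in the mutants and 0.65 in the controls. Ccnb2, a mitotic cyclin, gave 9.13, 8.55 and 9.39 against 8.55, 8.12 and 7.64, a difference of 0.92 (SE 0.28, adjusted p = 0.105). The cyclin-dependent kinase Cdk1 gave 8.94, 8.34 and 9.26 against 8.34, 8.25 and 7.76, a difference of 0.73 (SE 0.26, adjusted p = 0.149). In both genes mutant 2 was level with control 1.

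The general markers of cycling cells repeated this arrangement of arrays. Mki67, which encodes the proliferation antigen Ki-67, had values of 9.41, 8.63 and 9.71 against 8.63, 8.30 and 7.59. Top2a, the topoisomerase that untangles sister chromatids, gave 8.07, 7.44 and 8.56 against 7.48, 6.92 and 6.27. Control 3 was the lowest and mutant 3 the highest array for both. The differences were 1.07 (SE 0.35, 2.1-fold, limma adjusted p = 0.117) for Mki67 and 1.13 (SE 0.37, 2.19-fold, limma adjusted p = 0.12) for Top2a.

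Spindle motors and spindle proteins gave the 3 smallest p-values of the mitotic class. Kif20a, a kinesin of the central spindle and cytokinesis, had values of 7.85, 7.30 and 8.13 against 7.11, 6.83 and 6.90. No mutant overlapped a control, and the difference was 0.81 (SE 0.21, 1.75-fold, limma adjusted p = 0.0597). Kif23, a kinesin of the same structure, gave 8.58, 7.99 and 8.73 against 7.99, 7.46 and 7.22, a difference of 0.87 (SE 0.25, adjusted p = 0.0873). Mutant 2 was level with control 1 for this gene. Tpx2, which promotes spindle assembly and activates Aurora A, gave 7.42, 6.89 and 7.55 against 6.84, 6.64 and 6.61, without overlap (0.59, SE 0.18, adjusted p = 0.0993). Kif11, the kinesin that separates spindle poles, gave 8.25, 7.63 and 8.40 against 7.68, 7.30 and 7.22, a difference of 0.69 (SE 0.22, adjusted p = 0.113). Its mutant 2 value lay below control 1. Nusap1, another spindle protein, differed by 0.78 (SE 0.26).

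The mitotic kinases and the exit machinery followed with a range of sizes. Plk1, which drives entry into mitosis, had values of 8.52, 7.93 and 8.82 against 7.86, 7.65 and 7.61. All mutants exceeded all controls, and the difference was 0.72 (SE 0.22, adjusted p = 0.102). Aurkb, the kinase of the chromosomal passenger complex, differed by 0.63 (SE 0.21) and its partner Birc5 by 0.29 (SE 0.11), both without overlap. Aurka, the centrosomal kinase, differed by 0.17 (95% confidence interval −0.08 to 0.42). Cdc20, an activator of the anaphase-promoting complex, gave 7.99, 7.81 and 8.13 against 7.70, 7.69 and 7.48, without overlap (0.36, SE 0.11, adjusted p = 0.113). Ube2c, a ubiquitin-conjugating enzyme of that complex, differed by 0.69 (SE 0.29), with control 1 at 9.22 inside the mutant range of 8.87 to 9.63.

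Among checkpoint and kinetochore genes, Bub1 differed by 0.87 (SE 0.29), Cenpf by 0.50 (SE 0.17), Cenpe by 0.42 (SE 0.16), Bub1b by 0.36 (SE 0.14) and Ndc80 by 0.35 (SE 0.14). Of these 5 only Bub1b separated the groups. The checkpoint kinase Ttk had the smallest difference of the mitotic class, with values of 6.15, 6.01 and 6.44 against 6.42, 5.98 and 6.11 (0.03, 95% confidence interval −0.34 to 0.40, adjusted p = 0.934). The promoter window of Ttk holds CHR letters, as do those of Top2a and Ccnb2, while the windows of Bub1 and Nusap1 hold none. Likewise the 7 G1/S genes with E2F letters ran from Mcm3 at 0.07 to Mcm6 at 0.55, and the window of Rrm2, with the largest difference of its class, had none.

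**Figure D3:**
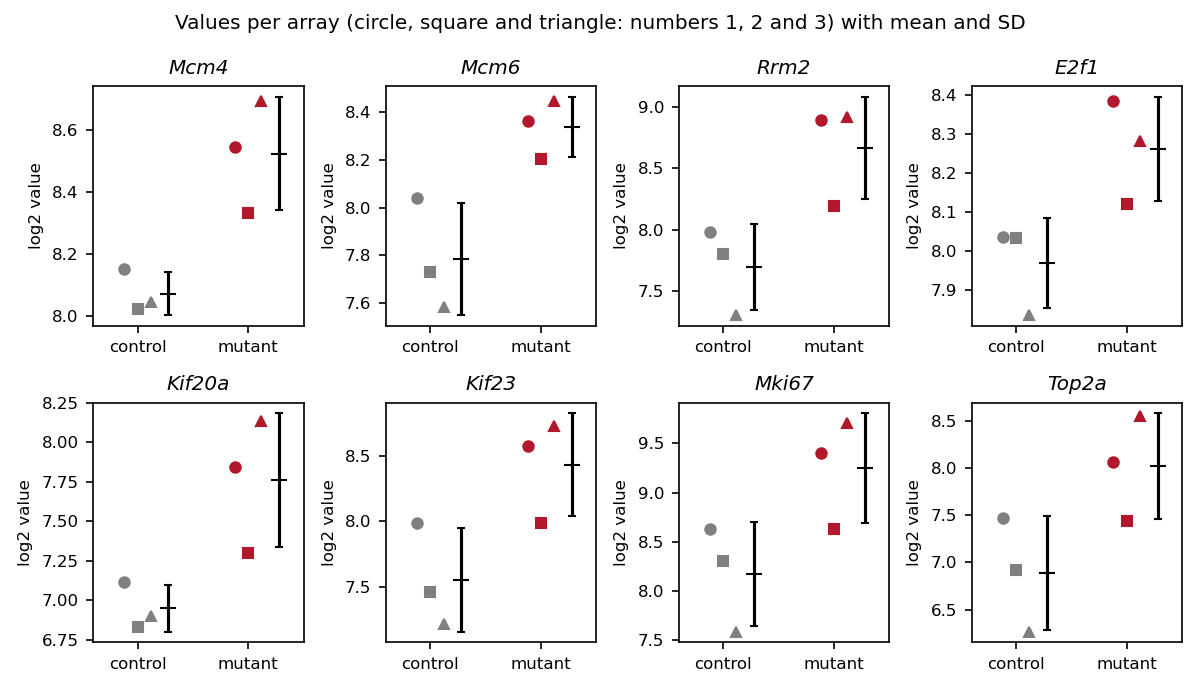
Log2 values of 8 genes on each array, with circles, squares and triangles for the numbers 1, 2 and 3 and bars for the mean and SD of 3 arrays. The axes differ between panels. In Mki67, Top2a and Kif23 the square of mutant 2 is level with or just under the circle of control 1, while Mcm4, Mcm6, Rrm2, E2f1 and Kif20a show no overlap.

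The 2 classes differed in size and in spread. The median log2 difference was 0.69 (1.62-fold) over the 22 G2/M genes and 0.29 (1.22-fold) over the 21 G1/S genes. Unadjusted p-values under 0.05 were found for 19 of 22 G2/M genes (86.4%) and 8 of 21 G1/S genes (38.1%), all higher in the mutants. The share of all named genes higher at that level was 13.7%. All 3 mutants lay above all 3 controls in 10 of 21 G1/S genes (47.6%) and 7 of 22 G2/M genes (31.8%). Over all named genes the share was 16.3%. No gene of either class lay wholly below, against 11.8%. The order of the classes in this count rests on near ties. Mutant 2 minus control 1 was −0.0009 in Mki67, −0.0023 in Ccnb2, −0.0025 in Cdk1, −0.0029 in Kif23 and −0.0053 in Ndc80. These count as overlapping. Aurkb counts as separated at 0.0026, and in the G1/S class Rrm1 at 0.0065 between mutant 2 and control 2. The median SD among mutants was 0.39 for G2/M genes and 0.13 for G1/S genes, and 0.11 over all named genes. Among controls it was 0.24, 0.17 and 0.14. No test of the difference between the classes was made.

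Mutant 2 was the mutant array nearest to the controls in the mitotic class. Mutant 2 was the lowest mutant for 22 of 22 G2/M genes and 14 of 21 G1/S genes, against 40.6% of all genes. It lay below control 1 for 15 of 22 G2/M genes (68.2%) and 6 of 21 G1/S genes (28.6%), against 53.6% of all genes. It lay within 0.1 of control 1 for 17 G2/M genes, where 32.1% of all genes lay that close. Mutants 1 and 3 exceeded all 3 controls for 21 of 22 G2/M genes and 12 of 21 G1/S genes, against 24.5% of all genes. Mutant 3 was the highest of the 6 arrays for 21 G2/M genes, with Ndc80 the exception. It was so for 12 of 21 G1/S genes and for 17.5% of all genes. Control 3 was the lowest array for 17 of 22 G2/M genes and 15 of 21 G1/S genes, against 18.5% of all genes. Without mutant 2, 12 genes passed as higher (Mcm4, Mcm7, Rrm2, Cdk1, Mki67, Bub1, Bub1b, Plk1, Kif11, Kif20a, Kif23 and Tpx2), where 6.9% of all named genes did. Without control 1, 5 passed (Mcm5, Mcm6, Tyms, Ccna2 and Kif23), against 4.67% of all genes. Leaving out both muscle-rich arrays, mutant 2 and control 2, gave 5 (Mcm7, Rrm2, Plk1, Kif20a and Tpx2), against 4.3%. No gene passed in limma without mutant 1, mutant 3, control 2 or control 3, where 2.49%, 2.48%, 3.67% and 4.44% of all genes passed as higher. Unadjusted p-values under 0.05 were then found for 14, 10, 21 and 13 of the 43 genes. The share of all genes at that level was not counted in these fits, so these counts have no background beside them.

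**Figure D4:**
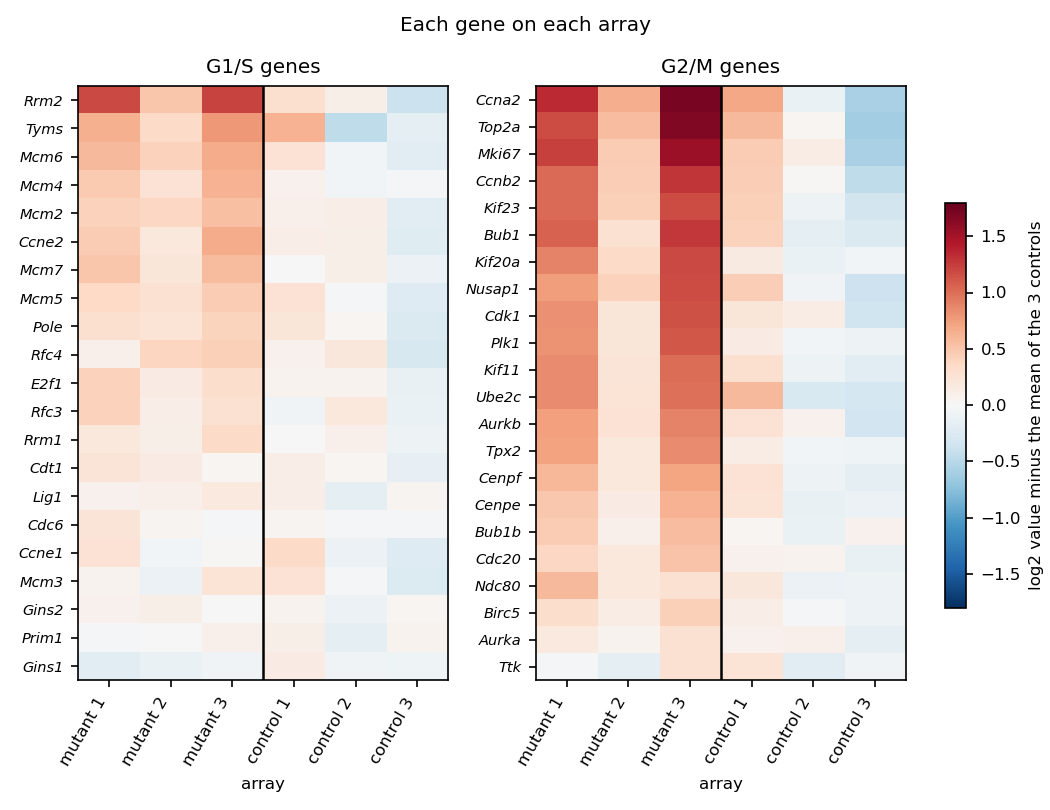
Each gene on each array, as the log2 value minus the mean of the 3 controls, with red for higher and blue for lower. Columns of mutants 1 and 3 are the reddest in the G2/M panel, and mutant 2 resembles control 1.

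Averaged over genes as the difference from the control mean, the G2/M class gave 0.74, 0.26 and 0.94 against 0.30, −0.05 and −0.24. The G1/S class gave 0.32, 0.18 and 0.37 against 0.15, −0.01 and −0.14. The order of the 6 arrays was the same in both classes except for mutant 2 and control 1, which changed places. Between samples of the same number, the G2/M median was 0.52, 0.30 and 1.22 for numbers 1, 2 and 3, and the G1/S median 0.11, 0.16 and 0.49. Among the males (2 mutants, 1 control) the G2/M median was 0.70 and the G1/S median 0.39. Among the females (1 mutant, 2 controls) they were 0.87 and 0.27. The mitotic median was thus the larger within every number and within both sexes. With sex as a covariate 12 genes passed as higher, 8 of them mitotic, where 4.46% of all named genes did.

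Markers of other cells moved across the arrays as well. All 12 macrophage markers had higher means in the mutants (median 0.33), and none passed. Their mean difference from the control mean came to 0.40, 0.17 and 0.47 against 0.19, −0.05 and −0.13. That is the array order of the G2/M class with the same place for mutant 2, just under control 1. The log2 of their summed level ran from 13.51 to 13.79 in the mutants and from 13.04 to 13.51 in the controls. Fibroblast markers gave 0.52, 0.22 and 0.50 against 0.16, 0.04 and −0.20, with summed levels of 15.74 to 15.96 against 15.44 to 15.62. Of these 10 genes 4 rose, among them Lum (0.99, adjusted p = 0.00378) and Cd34 (0.74, adjusted p = 0.0107). The part of macrophages and fibroblasts in the cell cycle result was not tested.

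Of 10 perineurial markers 7 rose and 1 fell (summed log2 level 14.90 to 15.04 in the mutants, 14.09 to 14.54 in the controls). The summed log2 level of the 10 measured Schwann cell markers was 13.43 to 13.95 in the mutants, below the 14.21 to 14.70 of the controls. Their mean difference from the control mean overlapped between the groups, with −0.10, −0.62 and −0.19 against −0.22, −0.11 and 0.33. Of these markers 4 fell, and Gfap, of immature and nonmyelinating Schwann cells, rose (11.04 to 11.88 against 6.75 to 7.12). Sox10 (−0.74), Egr2 (−1.47), Ngfr (−0.59), Foxd3 (0.03) and Cdh19 (0.03) did not pass. Endothelial markers (10 measured, 1 fell) overlapped at 13.61 to 13.64 against 13.43 to 13.86, and 9 T and B cell markers at 10.14 to 10.22 against 10.07 to 10.26. The 18 skeletal muscle markers ranged from 12.05 to 17.02 in the mutants and from 12.10 to 17.16 in the controls, and 6 markers of muscle satellite and early muscle cells from 9.41 to 10.70 and from 9.58 to 10.91. The 11 adipocyte markers spanned 14.74 to 15.25 and 14.09 to 16.02, and were highest in control 1 and lowest in control 3, as were the mitotic genes among controls. With the adipocyte score as a covariate Mcm2, Mcm5 and Mcm6 passed as higher, against 6.3% of all genes. With the muscle score Mcm6, Rrm2, Kif20a and Kif23 did, against 5.26%. The 3 erythroid markers spanned 11.20 to 12.82 and 11.34 to 11.82. A log array value has no true zero, and no detection calls were used here. The part of these cells in the result was not tested.

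**Figure D5:**
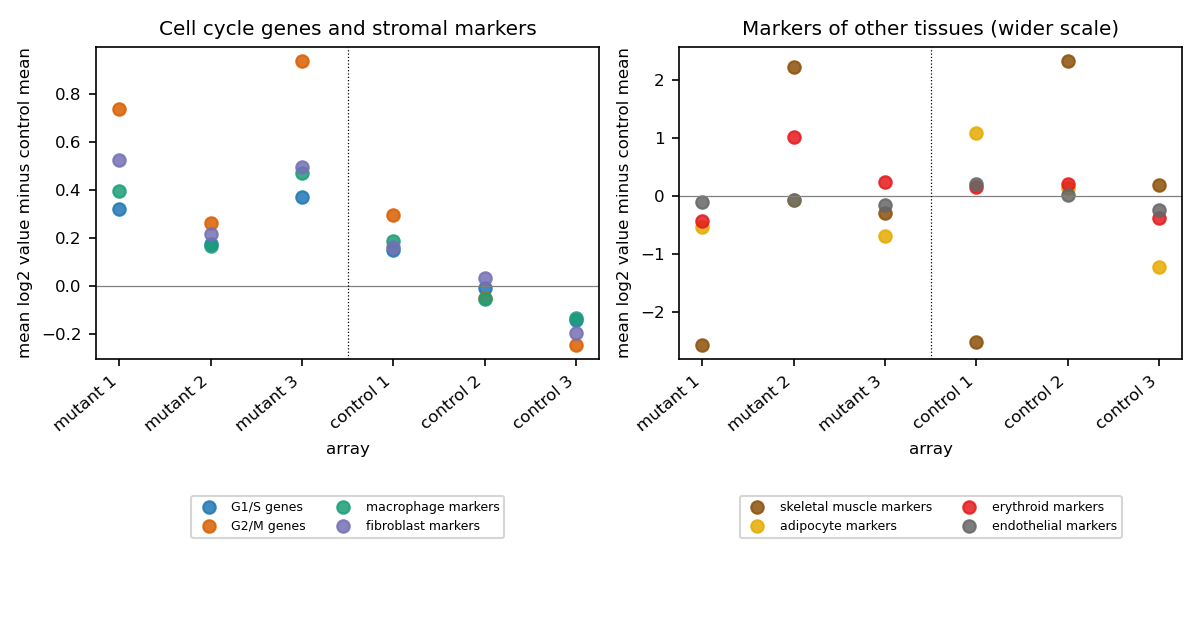
Mean log2 value minus the control mean on each array for the 2 classes beside macrophage and fibroblast markers (left) and for markers of muscle, fat, blood and endothelium (right, wider scale). The G2/M points are highest in mutants 1 and 3 and level in mutant 2 and control 1, and macrophage and fibroblast points lie in a similar arrangement.

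Further genes of the same pathways were counted in the same way. Of 37 other replication genes, 2 rose, 1 fell and 34 did not pass, with a median of 0.14. These counts are near the 5.74% of all named genes that passed as higher and the 3.89% that passed as lower. Prim2, the large primase subunit, rose by 0.48 (SE 0.10, adjusted p = 0.0263). Dut, which clears dUTP from the nucleotide pool, rose by 0.39 (SE 0.09, adjusted p = 0.041). Pold2, a polymerase delta subunit, fell by 0.39 (SE 0.09, adjusted p = 0.0458). Prim2, Dut and Pold2 in turn no longer passed without mutant 1 (adjusted p = 0.092, 0.185 and 0.196), mutant 3 (0.11, 0.16 and 0.161), control 2 (0.0835, 0.126 and 0.131) or control 3 (0.0522, 0.0533 and 0.112). Dut (0.0889) and Pold2 (0.0533) did not pass without control 1 either. In the blocked fit, Dut (0.0611) and Pold2 (0.0561) did not pass.

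Of 42 other mitotic genes, 2 rose and 40 did not pass, again near the 5.74% of all genes. The mean was higher in the mutants for 41 of them, against 45.9% of all genes, and the median was 0.33. The phosphatase Cdc25b, an activator of Cdk1, had values of 9.27, 9.18 and 9.22 against 8.77, 8.68 and 8.41. It rose by 0.60 (SE 0.11, limma adjusted p = 0.0176), and its mutant arrays lay close together. The mitotic kinase Pbk gave 7.16, 7.11 and 7.52 against 6.76, 6.65 and 6.67 and rose by 0.57 (SE 0.12, limma adjusted p = 0.0324). Cdc25b no longer passed without mutant 1 (adjusted p = 0.089) or mutant 3 (0.0794), and Pbk without any 1 array other than mutant 2 (0.0615 to 0.0976). In the blocked fit 5 of the 42 genes passed as higher, against 5.95%.

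Of 20 regulators of cell cycle genes none passed in limma, with 12 higher and 8 lower means and a median of 0.04. Unadjusted p-values under 0.05 were found for 3 higher genes (15.0%) and 1 lower gene. At that level 13.7% of all named genes were higher and 8.67% lower. E2f5, a repressor-type E2F factor, had values of 8.84, 8.44 and 8.91 against 8.11, 8.02 and 8.33 (0.58, SE 0.15, adjusted p = 0.0597). Mybl2, which encodes B-Myb, gave 8.06, 8.10 and 8.16 against 7.88, 7.89 and 7.80 (0.24, SE 0.08, adjusted p = 0.114). Foxm1, named here after its values were seen, gave 7.96, 7.27 and 8.36 against 7.59, 7.05 and 7.01 (0.64, SE 0.29, adjusted p = 0.254), with its arrays in the order of the G2/M class mean. In the blocked fit 1 regulator passed as higher, where 5.95% of all named genes did.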

How the data were processed

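Total RNA was isolated with Trizol and prepared for Affymetrix arrays with an Ambion WT kit, per the labels. The authors deposited log2 values, 1 for each gene-level probe set on each array. The base of the logarithm was read from the values (3.55 to 14.52). No source used here states the normalization, and the submitters' processing notes name limma with no role. Of 21225 probe sets, 20239 had 1 gene symbol through Entrez numbers and 986 had none. Arrays have no read depth, and their number limits the precision.

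The 20239 named genes entered limma 3.58.1 under R 4.3.3 (lmFit with eBayes, two-sided, mutant minus control, no block), with Benjamini-Hochberg adjustment over all of them and a threshold of 0.05. The fit was tested on simulated data with independent noise for each gene, which does not cover effects shared by many genes of an array. Values are log2, SE is limma's moderated standard error, and SD is over 3 arrays. The labels call the samples biological replicates. Both groups carry the numbers 1 to 3. Deviations from the group means correlated at 0.36, 0.574 and 0.295 between same-numbered samples, all over 0.1. The number was therefore treated as a pairing taken from the data and fitted as a block in an alternative. Between differently numbered samples the correlations ran from −0.607 to 0.303. The highest of these, mutant 1 with control 3, exceeded that of the samples numbered 3, so the pairing is not firm. Skeletal muscle markers followed the number in both groups. Their mean difference from the control mean was −2.56, 2.23 and −0.30 against −2.52, 2.33 and 0.19. The part of muscle in these correlations was not tested. The most alike arrays correlated at 0.9947, and none was counted as a repeat.

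Genes given with every array were the 8 with the smallest p in each class and Mcm2, E2f1, Ccne1, Cdk1, Mki67, Top2a and Plk1. Mcm3 and Ttk were added after their values were seen. In the other pathway lists up to 4 genes that passed, or the 2 with the smallest p, were named. The members, lists and rules were chosen with earlier results of these data known. Promoter windows come from RefSeq starts. Which start a gene uses in nerve was not measured, so a window need not hold its main promoter. Alternatives changed the filter on low values, the scaling, an added 16 on the linear scale, the variance prior, array weights, the block, the rows tested and covariates, or left out arrays. Sex was read from Xist and Eif2s3y, and the muscle and adipocyte scores are mean log2 values of 18 and 11 markers.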

Additional observations from a re-analysis of the deposited data

Results flagged for a closer look

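For the loading factor Cdt1 (0.14 on the log2 scale), mutants and controls stood in a different order in the 2 sexes. The male mutants, at 8.26 and 8.18, lay above the male control at 7.88. The female mutant, at 8.068, lay under both female controls, at 8.146 and 8.074. With 1 control among the males and 1 mutant among the females, no direction within a sex is supported, and the difference between the sexes was not tested.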

How the results depend on the processing

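The median log2 difference of both classes was above 0 under all 19 alternatives, from 0.18 to 0.37 for G1/S genes and from 0.52 to 0.92 for G2/M genes, and the G2/M median was the larger by 0.26 to 0.58. Moving Ccna2 to the G1/S class changed neither by more than the replicate spread. The count of genes past the test, 0 of 43, did depend on the setting, always towards higher. It was 4 without the lowest 25% of genes, where 1276 of all 15179 genes left were called higher. It was 3 without the lowest 50%, where 1132 of 10119 were. All of these were G1/S genes. It was 1 with 16 added to the linear values and 3 with a trended robust prior, again all G1/S. In these 2 settings 1226 and 1207 of 20239 genes were called higher. Array weights gave 29 (9 G1/S and 20 G2/M), with 2411 of 20239 genes called higher. The weights were 4.81, 0.46 and 1.52 for mutants 1, 2 and 3 and 0.47, 1.17 and 0.55 for controls 1, 2 and 3. That fit thus leaned most on mutant 1 and least on mutant 2 and control 1. The replicate block gave 3 (1 and 2), sex as a covariate 12 (4 and 8), the muscle score 4 (2 and 2), the adipocyte score 3 (all G1/S), and both samples numbered 2 left out 5 (2 and 3). Leaving out 1 array gave 0 to 12 in all, 0 to 3 for G1/S and 0 to 9 for G2/M. The filters left 37 and 19 of the 43 genes, so those counts are not of the whole list.

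Other replication genes called higher, 2 in the fit as reported, were 1 without the lowest 50% or with repeated quantile normalization, 0 with median centring, sex or both samples numbered 2 left out, 6 with array weights and 0 to 3 without 1 array. The 1 called lower became 0 with the block, sex or both samples numbered 2 left out, and was 0 to 1 without 1 array. Their median was 0.051 without the lowest 50%. Other mitotic genes called higher were 1 without the lowest 50%, 18 with array weights, 5 with the block, 4 with sex and 0 to 7 without 1 array. Regulators of cell cycle genes called higher were 1 without the lowest 50%, with the block or without both samples numbered 2, 4 with array weights and 0 to 1 without 1 array, and 1 was called lower with the adipocyte score. Their median of 0.037 was 0.002 without the lowest 50%, −0.014 with median centring, 0.0645 without both samples numbered 2 and 0.016 to 0.076 without 1 array. Over all named genes, those called higher were 1132 of 10119 without the lowest 50%. Of 20239 they were 1206 with repeated quantile normalization, 906 with median centring, 902 with sex and 1205 with the block. They were 2411 with array weights, 871 without both samples numbered 2 and 502 to 1397 without 1 array. Those called lower were 842 with the block, 674 with sex and 453 without both samples numbered 2. They were 1177 with the adipocyte score and 392 to 744 without 1 array. The sign of some genes near 0 turned. Without both samples numbered 2, Gins2 stood at −0.0068 and Prim1 at −0.053, and with median centring Prim1 stood at −0.033 and Ttk at −0.0215. Without 1 array Mcm3 ran from −0.055 to 0.20, Prim1 from −0.064 to 0.0675, Ccne1 from −0.046 to 0.24 and Ttk from −0.090 to 0.16. The causes were not tested. Array background compresses the differences of genes with low values.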
